A study of Mus musculus with 16 samples.

Results

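The genes described here encode the protein subunits of the mitochondrial ribosome. Membership was set by name, as every gene whose symbol is Mrpl or Mrps followed by a number and at most 1 letter, which gave 77 of the 24421 genes in the deposited count tables (48 Mrpl and 29 Mrps genes). The family itself was chosen with earlier results of these data known. All 77 had at least 10 reads in at least 3 libraries of the gastrocnemius (Gas), a muscle dominated by fast fibers, and all 77 did so in the soleus (Sol), which is rich in slow fibers. RNA-seq gave 3 WT and 5 LSD1-mKO libraries of each muscle, 16 in all. The mice were C57BL/6 males, 8 weeks old, and every mouse received tamoxifen (75 mg/kg for 5 days) and dexamethasone (1 mg/kg for 7 days), a synthetic glucocorticoid. LSD1-mKO mice were Lsd1 flox/flox and carried ACTA1-CreERT2, a tamoxifen-inducible Cre under the human skeletal actin promoter, whereas WT mice had the floxed gene without Cre, so that non-muscle cells of LSD1-mKO muscles keep LSD1. No muscle without dexamethasone or tamoxifen is part of the comparison.

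Mitochondria have their own ribosome, which translates the few proteins encoded in mitochondrial DNA, all of them subunits of the respiratory chain and ATP synthase. Its ribosomal RNAs come from mitochondrial DNA, but all of its proteins are encoded in the nucleus, translated in the cytosol and imported. Some of these proteins descend from bacterial ribosomal proteins and others were added during the evolution of mitochondria. Muscle fibers with a high oxidative capacity depend on this synthesis. By the structure-based names of their proteins, 50 of the 77 genes encode large-subunit proteins and 26 encode small-subunit proteins, since the products of Mrps18a and Mrps30 lie in the large subunit in spite of their names. Mrps36 is the remaining member, and its product is now regarded as a subunit of the 2-oxoglutarate dehydrogenase complex and not of the ribosome. By the prefix of the protein name, 46 of the ribosomal members have a bacterial counterpart and 30 are specific to mitochondria.

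Library totals ranged from 10130415 to 24576377 reads assigned to genes. Kdm1a, which encodes LSD1, was between 37.3 and 48.2 CPM (reads scaled to the size of each library, with TMM factors over the 16 libraries) in WT Gas and between 12.0 and 17.7 CPM in LSD1-mKO Gas. It was between 33.4 and 34.9 CPM in WT Sol and between 9.13 and 12.9 CPM in LSD1-mKO Sol, so that every library followed its genotype label. Fiber type also followed the labels, because all 7 slow fiber markers were called higher in Sol than in Gas in either genotype, and 6 (WT) and 7 (LSD1-mKO) of 8 fast fiber markers were called lower. None of the markers examined for fibroblasts, endothelium, adipocytes, immune cells, Schwann cells and satellite cells was at 0 in all libraries of a group. Between the genotypes in Gas, 0 of 8 fast fiber markers were called, 6 of 8 were below 0 with a median of -0.56 log2, 3 were lower at an unadjusted p under 0.05, and their sum spanned 162000 to 201000 CPM in WT and 126000 to 173000 CPM in LSD1-mKO. All 7 slow fiber markers were above 0 (median 0.42, 0 called, 956 to 2120 against 1420 to 2150 CPM), and all 5 adipocyte markers were below 0 (median -0.44, 0 called, 592 to 1930 against 516 to 686 CPM). Without replicate 3 of WT Gas and replicate 5 of LSD1-mKO Gas, 2 high libraries described below, the adipocyte median was -0.05 with 4 of 5 below 0. The fast fiber median was then -0.47 and the slow fiber median 0.79. Of the slow fiber markers, 5 were then higher at an unadjusted p under 0.05 (6.53% of all genes), and 0 were called in the 3 lists. In Gas, the 6 fibroblast markers summed to between 1410 and 1960 CPM in WT and between 873 and 1110 CPM in LSD1-mKO, with 0 of 6 called (edgeR, 2 of them lower at an unadjusted p under 0.05). In Sol, 5 adipocyte markers summed to between 549 and 1190 CPM in WT and between 407 and 605 CPM in LSD1-mKO, and 4 satellite cell markers to between 31.4 and 35.1 CPM and between 41.2 and 59.2 CPM. Medians in Sol were -0.295 for the fast fiber and -0.11 for the slow fiber markers. They were 0.36 for fibroblast, 0.36 for immune cell and -0.70 for adipocyte markers, with 0 called in each list. Without replicate 2 of WT Sol these medians were 0.16, 0.16, 0.50, 0.56 and -0.35 in that order, again with 0 called. The part of these cell types in the results below was not tested. The labels give separate samples without saying which came from the same mouse, and p-values measure the spread between these libraries. In whole muscle, fewer cells of a type and less RNA per cell cannot be told apart.

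The members were expressed as a family of moderate level. Their mean log2 CPM in WT Gas was 5.48, 5.39 and 6.24, or 5.71 ± 0.46 (SD, n = 3). In LSD1-mKO Gas it ran from 5.10 to 5.94 with a mean of 5.41 ± 0.33 (SD, n = 5). In WT Sol it was 5.28, 5.75 and 5.23, or 5.42 ± 0.29 (SD, n = 3), and in LSD1-mKO Sol it ran from 5.08 to 5.34 with a mean of 5.21 ± 0.12 (SD, n = 5). The 2 genotypes therefore overlapped in both muscles. A single library stood high in 3 of the 4 groups: replicate 3 of WT Gas, replicate 5 of LSD1-mKO Gas and replicate 2 of WT Sol.

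**Figure D1:**
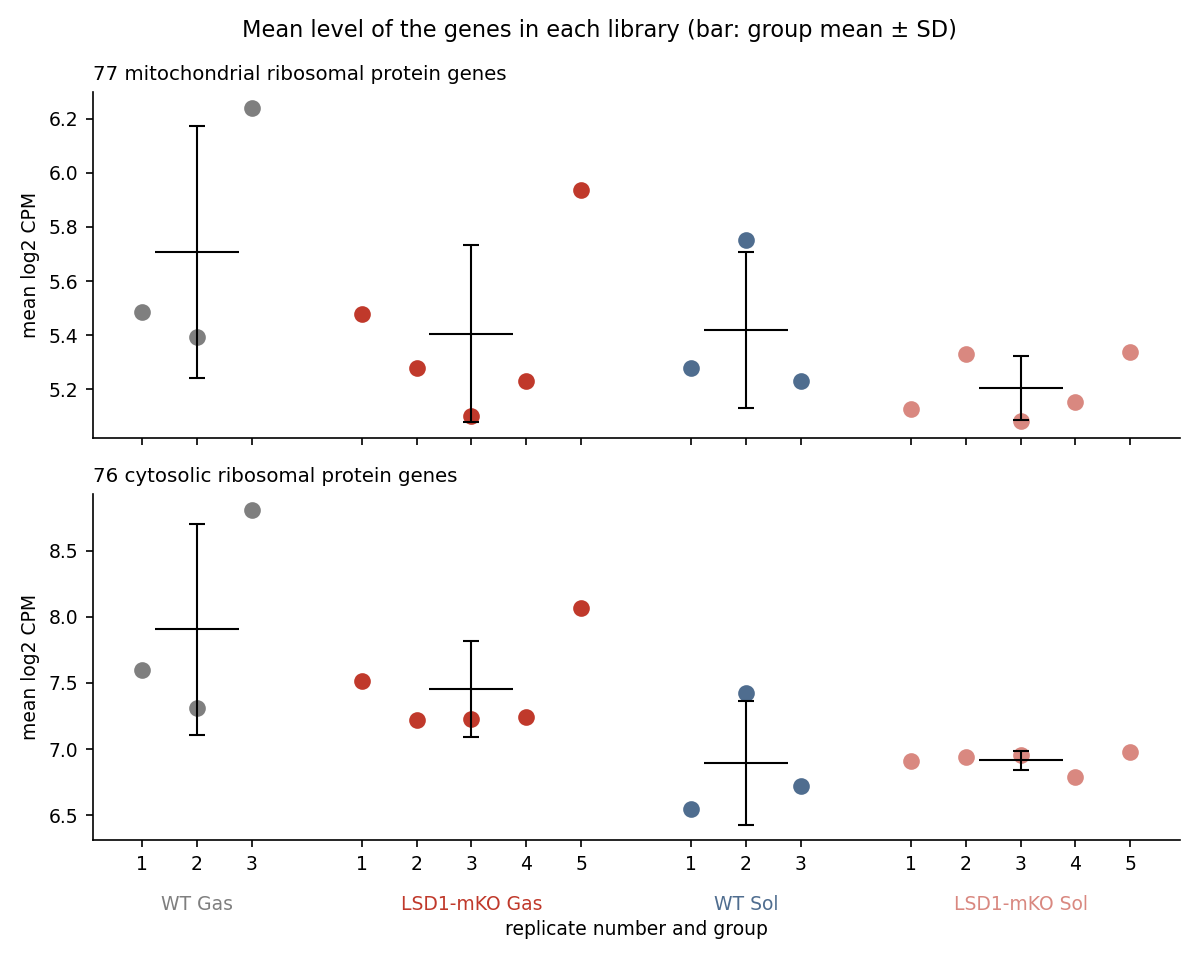
Mean log2 CPM of the 77 mitochondrial (top) and 76 cytosolic (bottom) ribosomal protein genes, 1 point per library, by group and replicate number, with the group mean ± SD as bars. The 3 libraries at the top of the upper panel, at 6.24, 5.94 and 5.75, are also those that stand highest within their groups in the lower panel.

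The same 3 libraries were high in the proteins of the cytosolic ribosome, which translates nuclear messages. The mean log2 CPM of 76 Rpl and Rps genes was 8.81 in replicate 3 of WT Gas against 7.60 and 7.31 in the other two. It was 8.07 in replicate 5 of LSD1-mKO Gas against 7.22 to 7.52 in the rest of that group. It was 7.43 in replicate 2 of WT Sol against 6.55 and 6.72. For the mitochondrial members, replicate 3 of WT Gas exceeded the mean of the other WT Gas libraries in 71 of 77 genes, with a median difference of 0.78 on the log2 scale and the largest in Mrpl33, 2.62. Replicate 5 of LSD1-mKO Gas did so within its group in 76 of 77 members (median 0.62), and replicate 2 of WT Sol in 73 of 77 (median 0.50). The median difference of the cytosolic genes was 1.33, 0.75 and 0.74 in the 3 libraries. Short transcripts were high in these libraries over all genes too. Across 13677 genes with a known transcript length, Spearman's rho between that length and a library's deviation from the mean of its muscle was -0.438 in replicate 3 of WT Gas, -0.487 in replicate 5 of LSD1-mKO Gas and -0.501 in replicate 2 of WT Sol, and between -0.078 and 0.395 in the other 13 libraries. Members have short transcripts, with a median of 1226 bases against 2784 for all genes tested in Sol. The main counts and medians, and the members named below where these libraries move the value, are therefore given with and without them, a choice made after seeing the data, while other values rest on every library. The part that transcript length or RNA quality plays was not tested.

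**Figure D2:**
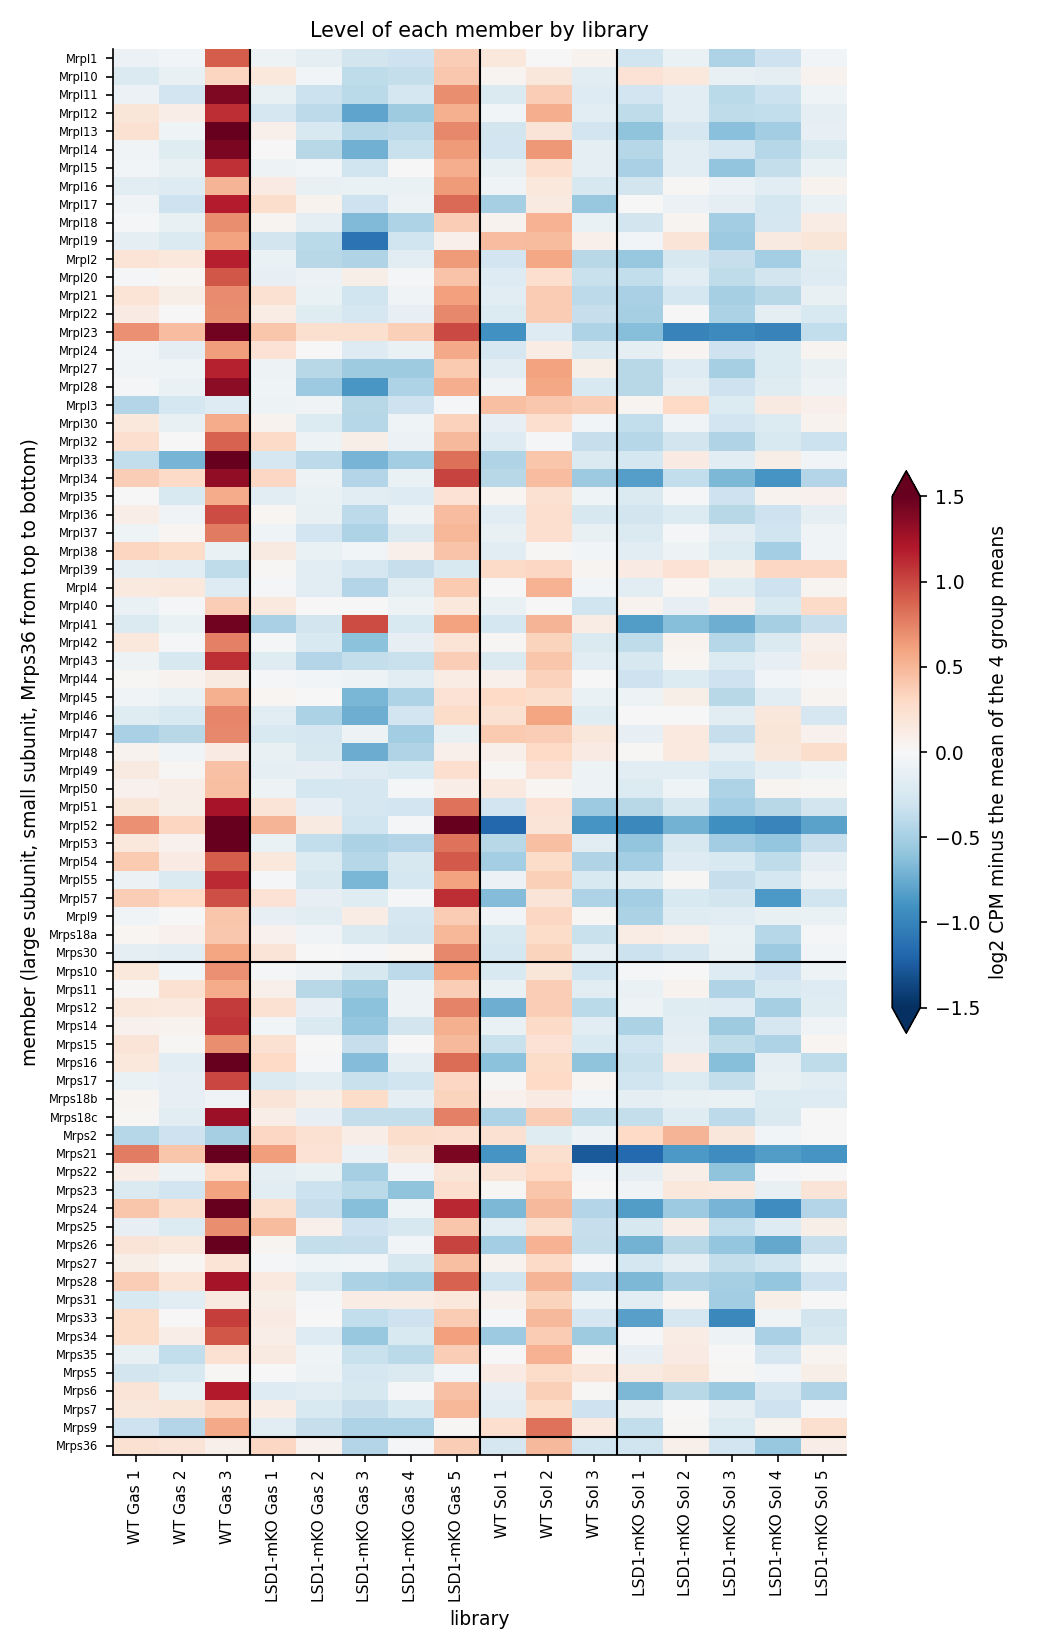
Level of each member (rows, large subunit above small subunit, Mrps36 last) in each of the 16 libraries (columns), as log2 CPM minus the mean of the 4 group means, with red above and blue below. Replicate 3 of WT Gas, replicate 5 of LSD1-mKO Gas and replicate 2 of WT Sol are red in nearly every row, and Mrpl23, Mrps21 and Mrpl52 are mostly blue across Sol.

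The large and small subunit moved together from library to library. The mean log2 CPM of the 50 large-subunit genes lay above that of the 26 small-subunit genes by between 0.35 and 0.50 in every one of the 16 libraries, while the mean of all members itself ranged from 5.08 to 6.24. The difference was 0.44 ± 0.05 in WT Gas and 0.40 ± 0.03 in LSD1-mKO Gas, and 0.46 ± 0.05 in WT Sol and 0.45 ± 0.03 in LSD1-mKO Sol (SD, n = 3 or 5). The members did not keep pace with the cytosolic genes to the same degree. Mitochondrial minus cytosolic mean log2 CPM spanned -2.57 to -1.92 over the 8 Gas libraries, against -1.87 to -1.27 over the 8 Sol libraries, without overlap between the muscles. By genotype it was -2.20 ± 0.33 and -2.05 ± 0.08 in WT and LSD1-mKO Gas, and -1.48 ± 0.20 and -1.71 ± 0.11 in WT and LSD1-mKO Sol. The genotypes overlapped in Gas. In Sol they overlapped through replicate 2 of WT alone, at -1.67, while the other WT libraries, at -1.27 and -1.49, lay above the LSD1-mKO range of -1.87 to -1.61. As a share of all assigned reads, members made up between 0.320% and 0.635% in Gas and between 0.339% and 0.520% in Sol.

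Levels per length spanned a wide range. Averaged over the 4 groups, CPM per kilobase of transcript (RPKM) had a median of 30.5 over the members. Mrpl42, at 304.1 RPKM, Mrpl33, at 243.3, and Mrps21, at 235.0, stood highest. Mrps5, at 6.94, Mrpl19, at 4.90, and Mrps25, at 4.61, stood lowest, and all 3 have long annotated transcripts (4481, 5000 and 6073 bases against 661, 478 and 405 bases for the top 3). The order of Mrpl42, Mrpl33 and Mrps21 is not settled within their spread, since Mrpl33 was 384.5 ± 419.9 and Mrps21 446.3 ± 296.3 RPKM in WT Gas (SD, n = 3). Over the 77 members the order of group means was almost the same in every group, with Spearman's rho of 0.987 between WT and LSD1-mKO in Gas, 0.990 in Sol, 0.963 between WT Gas and WT Sol, and 0.972 between the LSD1-mKO muscles. These values are a description over genes of the same libraries. No member was near the limit of detection: the lowest count in any library was 69 reads, for Mrps33. The spread between replicates differed by group, with a median coefficient of variation over members of 33.7% in WT Gas, 24.7% in LSD1-mKO Gas, 21.3% in WT Sol and 11.3% in LSD1-mKO Sol.

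In Gas, no member was called different between LSD1-mKO and WT (0 of 77 at an adjusted p under 0.05, edgeR's quasi-likelihood test with Benjamini-Hochberg adjustment over 13040 genes), where 0.0307% of all genes were called. DESeq2 called 132 of the 13040 genes, with 1 member among them, Mrps2, and edgeR's exact test called 104 genes and 0 members. Most members had lower fitted levels in LSD1-mKO. The fold change was below 0 for 68 of 77 (88.3%, against 48.8% of all genes), with a median of -0.31 log2 (all genes, 0.01). At an unadjusted p under 0.05, 1 member was higher (1.3%, against 4.75% of all genes) and 1 was lower (1.3%, against 4.31%). In 1 member every LSD1-mKO library lay above every WT library (1.3%, against 4.1%), and in 0 every one lay below (against 2.91%). The cytosolic genes were lower in 75 of 76, with a median of -0.58. Without replicate 3 of WT Gas the members' median was -0.02 with 45 of 77 below 0, and the cytosolic median was 0.05. Without replicates 3 of WT Gas and 5 of LSD1-mKO Gas the members' median was -0.16 with 60 of 77 below 0, and the cytosolic median was -0.11. The size of the shift therefore rested on the high WT library. The count at an unadjusted p under 0.05 also moved with single libraries. It was 26 lower (9.05% of all genes) without replicate 5 of LSD1-mKO Gas, where 71 of 77 were below 0 and the median was -0.46. It was 13 lower (6.76%) without replicate 2 and 6 lower (5.21%) without replicate 1 of WT Gas, 0 without replicate 3, and 12 lower (7.35%) with all 16 libraries in 1 fit.

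Mrps2 was the member whose groups stood apart in Gas. It encodes uS2m, a small-subunit protein with a bacterial counterpart. Its level was 17.8, 19.2 and 16.9 CPM in WT Gas and 29.7, 28.1, 25.7, 28.7 and 28.6 CPM in LSD1-mKO Gas. All 5 LSD1-mKO libraries lay above all 3 WT libraries, and Mrps2 was not raised in the high WT library. The log2 fold change was 0.65 (SE 0.15, adjusted p = 0.309, edgeR), and without both high Gas libraries it was 0.62 (SE 0.14, adjusted p = 0.216 by the same test). With DESeq2 Mrps2 was called (adjusted p = 0.00559 by DESeq2), and over all alternative settings its adjusted p ran from 0.00559 to 0.711 with a fold change between 0.61 and 0.81. In Sol it was 27.9, 21.1 and 22.7 CPM in WT and between 23.3 and 34.1 CPM in LSD1-mKO, with overlap and a log2 fold change of 0.19 (SE 0.16). Mrps2 was the only one of the 77 members with a fold change above 0 in both muscles, 64 were below 0 in both, 4 were below 0 in Gas alone and 8 in Sol alone.

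The other members with the highest fold changes in Gas were small in size. Mrps18b, which encodes mS40, was at 0.21 (SE 0.17), Mrps31, which encodes mS31, at 0.17 (SE 0.16), Mrpl3, which encodes uL3m, at 0.13 (SE 0.17) and Mrps30, which encodes mL65, at 0.08 (SE 0.25). The 5 lowest were Mrpl33, Mrpl52, Mrpl53, Mrps24 and Mrpl13, between -0.997 and -0.77, and none passed the test (adjusted p between 0.555 and 0.589, edgeR). Mrpl33, which encodes bL33m, shows how 1 library set these values. Its level was 75.8, 60.2 and 415.4 CPM in WT Gas and between 60.3 and 172.6 CPM in LSD1-mKO Gas. Only replicate 3 of WT Gas lay above the LSD1-mKO range, and without the high libraries the fold change was 0.08 (SE 0.17) in place of -0.997 (SE 0.59). Mrpl12, the homolog of the bacterial stalk protein L7/L12 and reported to bind the mitochondrial RNA polymerase, was at 166.6, 158.1 and 316.4 CPM in WT Gas. In LSD1-mKO Gas it was at 123.8, 112.1, 85.0, 101.9 and 213.7 CPM, with overlap through replicate 5. The fitted difference was -0.74 log2 (SE 0.33, adjusted p = 0.550, edgeR), and -0.60 (SE 0.17, adjusted p = 0.261, edgeR) without both high libraries.

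**Figure D3:**
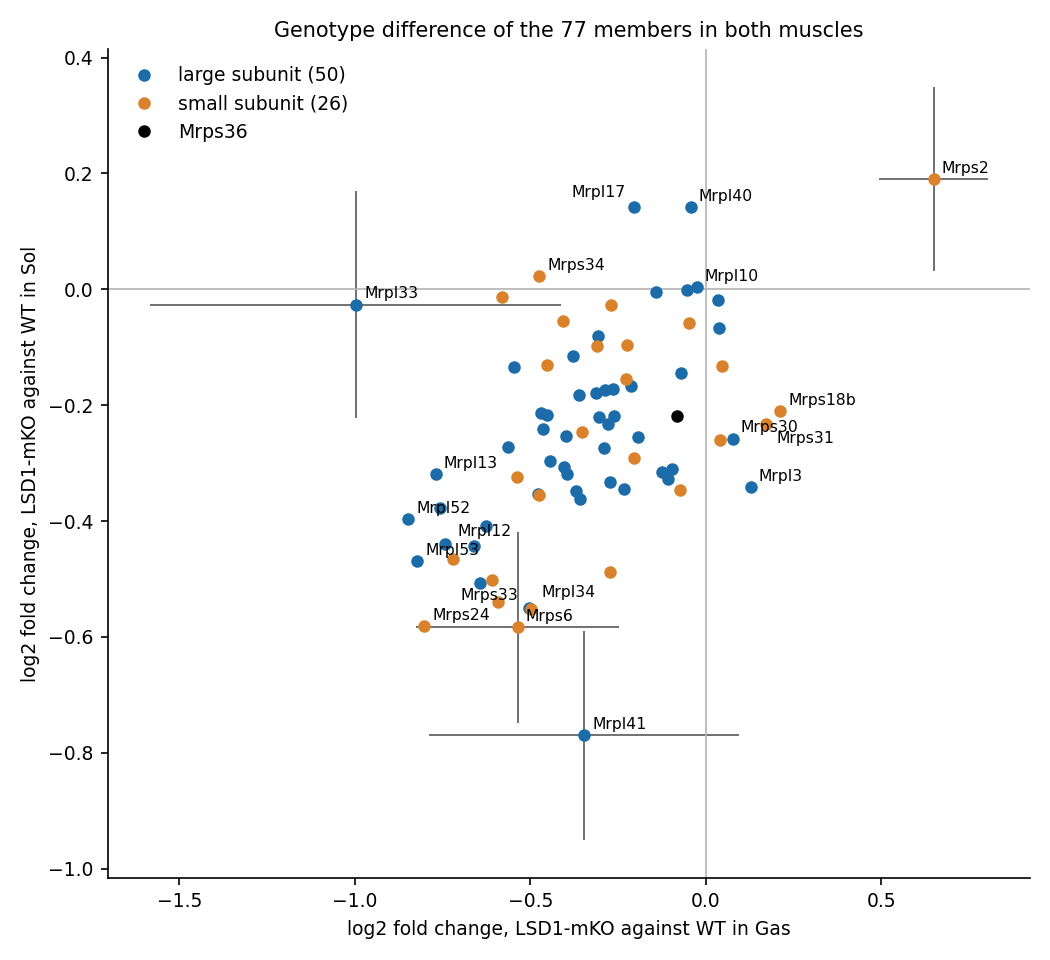
Log2 fold change of LSD1-mKO against WT for each of the 77 members in Gas (horizontal axis) and Sol (vertical axis), colored by ribosomal subunit, with standard errors as lines for Mrps2, Mrpl41, Mrps6 and Mrpl33. Most points lie below and left of 0, 64 of them in both muscles, and Mrps2 stands alone above 0 in both.

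In Sol, no member was called either (0 of 77 by edgeR's quasi-likelihood test, where 0.967% of 13342 genes were called), although more members had a low unadjusted p. DESeq2 called 605 of the 13342 genes, with 2 members among them, Mrpl41 and Mrps6. The exact test called 560 genes, with 1 member, Mrpl41. The fold change was below 0 for 72 of 77 (93.5%, against 51.8% of all genes), with a median of -0.25 (all genes, -0.01; cytosolic genes, -0.05). At an unadjusted p under 0.05, 0 members were higher (against 8.66% of all genes) and 19 were lower (24.7%, against 6.84%). Every LSD1-mKO library lay below every WT library in 10 members (13.0%, against 5.04%) and above in 0 (against 6.09%). The median and the count below 0 rested on replicate 2 of WT Sol. Without it, 50 of 77 were below 0, the median was -0.07, and 3 members were higher (8.53% of all genes) and 4 lower (6.16%) at an unadjusted p under 0.05. The cytosolic median was then 0.25, so the members still lay below the cytosolic genes. The count of 19 moved with other libraries as well, to 5 lower (4.35%) without replicate 1 of LSD1-mKO Sol, 7 (5.73%) without replicate 3 and 10 (5.55%) without replicate 4. It was 5 (4.2%) with all 16 libraries in 1 fit and 33 (9.11%) with the cytosolic level as a covariate, where the median was -0.23 and 67 of 77 were below 0. By share of assigned reads, members took 0.376% and 0.365% in the remaining WT Sol libraries, within the LSD1-mKO range of 0.339% to 0.383%.

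Mrpl41 was the member with the lowest p in Sol. Its product, mL41, is a large-subunit protein specific to mitochondria. It was at 44.7, 76.8 and 58.1 CPM in WT Sol and at 30.1, 34.6, 32.3, 38.3 and 42.3 CPM in LSD1-mKO Sol. The groups did not overlap, with the highest LSD1-mKO library just under the lowest WT library. The log2 fold change was -0.77 (SE 0.18, adjusted p = 0.0712, edgeR), and without replicate 2 of WT Sol it was -0.54 (SE 0.16, adjusted p = 0.175, edgeR). Mrpl41 was called under 6 of the other settings, among them DESeq2 (adjusted p = 0.00778) and the cytosolic level as a covariate (adjusted p = 0.0310), and over all alternative settings its adjusted p ran from 0.00743 to 0.459. The 6 include the replicate block, although replicate numbers did not pair the genotypes in Sol. In Gas it ranged from 38.4 to 106.6 CPM in LSD1-mKO against 46.3, 50.1 and 146.8 CPM in WT, with a log2 fold change of -0.35 (SE 0.44). There, LSD1-mKO replicates 3 and 5 stood at 106.6 and 81.8 CPM and the other three lower.

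Mrps6, which encodes the small-subunit protein bS6m, came next in Sol. It was at 12.3, 17.3 and 13.5 CPM in WT Sol and at 8.37, 10.01, 9.05, 11.2 and 9.76 CPM in LSD1-mKO Sol, again without overlap. The log2 fold change was -0.58 (SE 0.17, adjusted p = 0.122, edgeR), and -0.42 (SE 0.15, adjusted p = 0.264, edgeR) without replicate 2 of WT Sol. In GENCODE M21, exons of Slc5a3 and Mrps6 overlap on the same strand, so that reads in the shared part may have been counted for neither. Mrps24, Mrps33 and Mrpl34 followed, between -0.58 and -0.55, and were between -0.30 and -0.13 without that library. At the upper end, Mrpl40, which encodes mL40, and Mrpl17, which encodes bL17m, were both at 0.14, Mrps34, which encodes mS34, was at 0.02 and Mrpl10, which encodes uL10m, at 0.00 (SE between 0.14 and 0.23). Without replicate 2 of WT Sol, Mrpl17 was at 0.41 (SE 0.11, adjusted p = 0.154, edgeR), with WT at 51.0 and 48.6 CPM and LSD1-mKO between 59.9 and 71.8 CPM. Without the same library Mrps34 was at 0.41 (SE 0.16, adjusted p = 0.274, edgeR), Mrpl40 at 0.22 (SE 0.16) and Mrpl10 at 0.10 (SE 0.13).

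**Figure D4:**
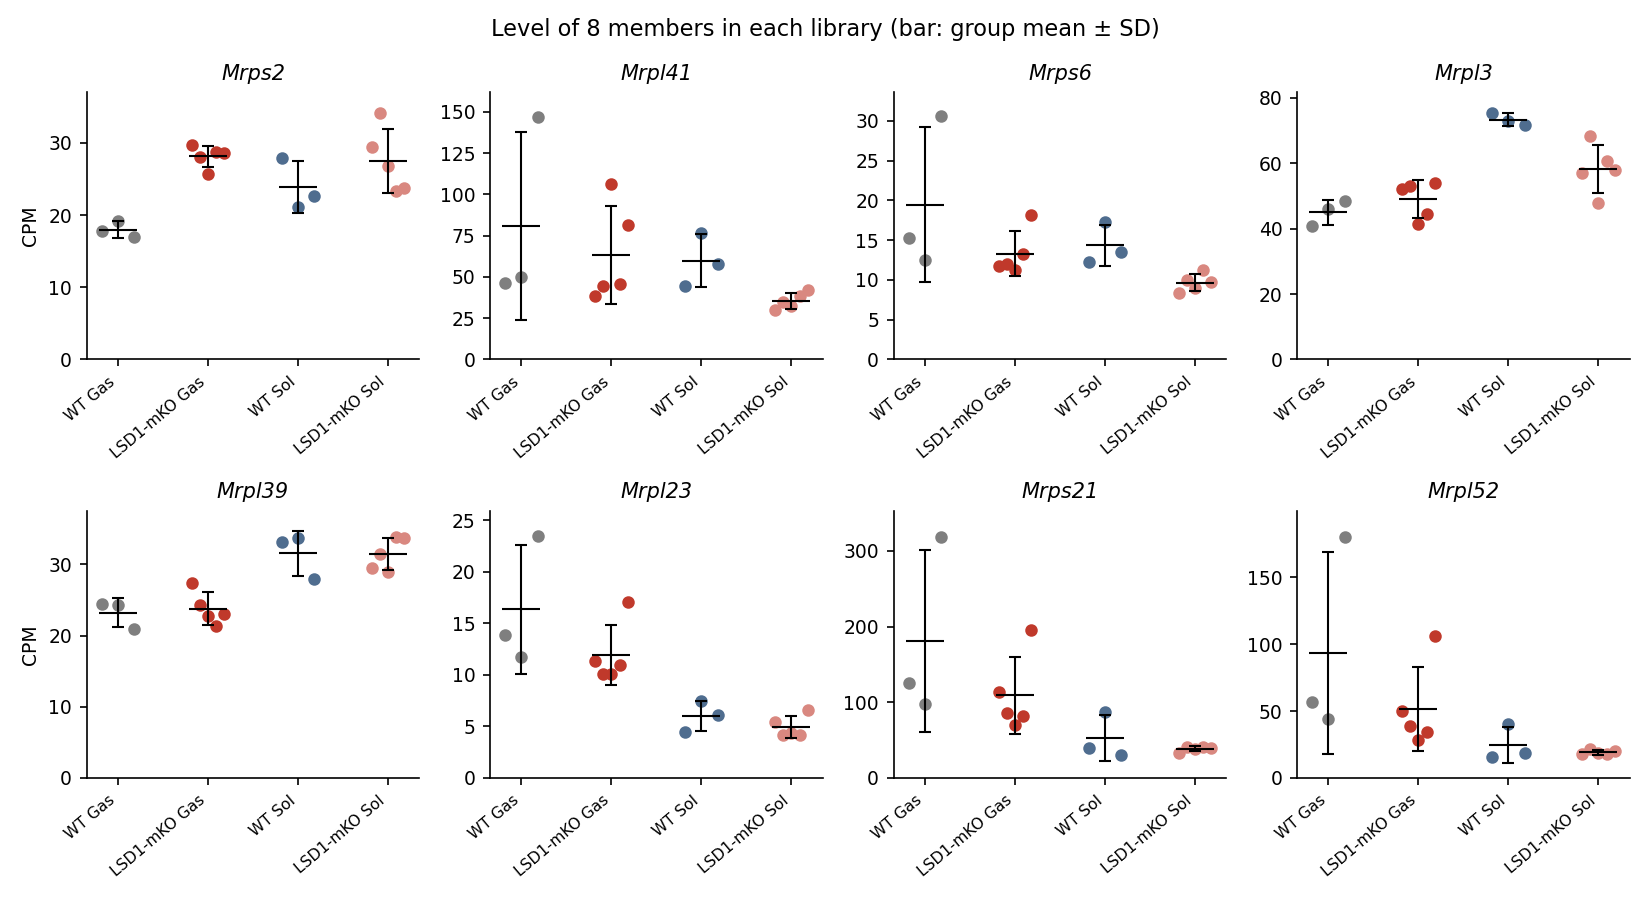
Level in CPM of 8 members in each library, by group, with group mean ± SD as bars and the vertical axes starting at 0. Mrps2 is higher in all 5 LSD1-mKO Gas libraries than in WT Gas, Mrpl41 and Mrps6 are lower in all 5 LSD1-mKO Sol libraries than in WT Sol, Mrpl3 and Mrpl39 are higher in WT Sol than in WT Gas, and Mrpl23, Mrps21 and Mrpl52 are lower.

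Structural groups of the ribosome gave like values. In Gas the median log2 fold change was -0.33 for the large subunit and -0.33 for the small subunit, -0.38 for members with a bacterial counterpart and -0.30 for those specific to mitochondria. In Sol the same medians were -0.26, -0.24, -0.30 and -0.22. Without the high libraries they lay between -0.18 and -0.14 in Gas and between -0.08 and -0.06 in Sol. The genotype difference was also compared between muscles directly. The difference of the genotype effect between Sol and Gas was called for 0 of 77 members, as for 0% of 13749 genes, and at an unadjusted p under 0.05 for 3 members (3.9%, against 4.88% of all genes). These were Mrpl3 at -0.45 (SE 0.20), Mrps18b at -0.41 (SE 0.18) and Mrps2 at -0.44 (SE 0.21), each with an adjusted p of 0.987 by edgeR. Without the 3 high libraries they were at -0.47, -0.31 and -0.47, and Mrps34 was at 0.81 (SE 0.25, adjusted p = 0.368, edgeR). In that fit 0 members were called. At an unadjusted p under 0.05, 6 members lay above 0 (5.58% of all genes) and 1 below (4.17%), where the 3 of the main fit all lay below. DESeq2 called 0 members as well.

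Related members differed in how they followed the high libraries. The products of Mrps18a, Mrps18b and Mrps18c all derive from the same bacterial protein, bS18, and take separate places in the ribosome. Mrps18a was at 84.4 ± 12.6 CPM in WT Gas and 76.3 ± 17.6 CPM in LSD1-mKO Gas. Mrps18c was at 44.1 ± 26.2 and 31.9 ± 11.6 CPM, and Mrps18b at 25.6 ± 1.48 and 29.6 ± 3.72 CPM (SD, n = 3 and 5). Mrps18b hardly moved with the high libraries, at 25.4 CPM in replicate 3 of WT Gas, while Mrps18c was at 74.2 CPM there against 30.8 and 27.1 CPM. In Sol, Mrps18b was at 27.7, 28.8 and 25.6 CPM in WT and between 22.9 and 24.8 CPM in LSD1-mKO, without overlap (log2 fold change -0.21, SE 0.11, adjusted p = 0.411, edgeR).

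Mrpl11 and Mrpl10 encode uL11m and uL10m, which with Mrpl12 form the base and stalk where translation factors bind. Mrpl11 had a log2 fold change of -0.56 (SE 0.39) in Gas and -0.27 (SE 0.16) in Sol, and Mrpl10 of -0.03 (SE 0.23) and 0.00 (SE 0.14). Mrps12, which encodes uS12m of the decoding site, was at -0.41 (SE 0.31) and -0.06 (SE 0.22). Mrpl45, which encodes mL45 at the exit of the peptide tunnel where the ribosome meets the inner membrane, was at -0.29 (SE 0.24) and -0.27 (SE 0.15). Mrps36, the member outside the ribosome, was at -0.08 (SE 0.21) and -0.22 (SE 0.22). None of these passed the test (adjusted p between 0.249 and 0.995 for Mrpl10, Mrpl11, Mrpl12, Mrps12, Mrpl45 and Mrps36 in both muscles, edgeR). Without replicate 2 of WT Sol, Mrps12 was at 0.34 (SE 0.15, adjusted p = 0.333, edgeR) in Sol.

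Some members were called different between the muscles, in the main fit in shares below those of all genes. Gas and Sol libraries come in separate count tables and their handling cannot be told apart from the muscle. In WT, 2 members were called higher in Sol (2.6%, against 8.75% of all genes) and 3 were called lower (3.9%, against 8.25%). In LSD1-mKO, 1 member was called higher (1.3%, against 12.9%) and 7 lower (9.09%, against 11.6%). The median log2 fold change of Sol against Gas was -0.28 in WT and -0.20 in LSD1-mKO (all genes in WT, -0.01), and 58 and 64 of 77 were below 0. The cytosolic genes had medians of -1.09 and -0.56. Without the 3 high libraries the members' medians were -0.13 and -0.05, and 16 members were called in either genotype. Of these, 3 were higher and 13 lower in WT, and 4 higher and 12 lower in LSD1-mKO. Of all genes, 10.9% were then called higher and 10.8% lower in WT, and 15.8% and 15.5% in LSD1-mKO. With the cytosolic level as a covariate, which itself differs between the muscles, the medians turned positive, 0.36 in WT and 0.14 in LSD1-mKO. So did most calls, with 18 members higher and 1 lower in WT and 17 higher and 3 lower in LSD1-mKO. With the covariate, 7.15% of all genes were called higher and 6.45% lower in WT, and 14.3% and 12.8% in LSD1-mKO. The members' shares were therefore not below those of all genes in every setting. The same-numbered LSD1-mKO libraries of Gas and Sol deviated together, and with the replicate as a block, 4 members were called in LSD1-mKO in place of 8.

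**Figure D5:**
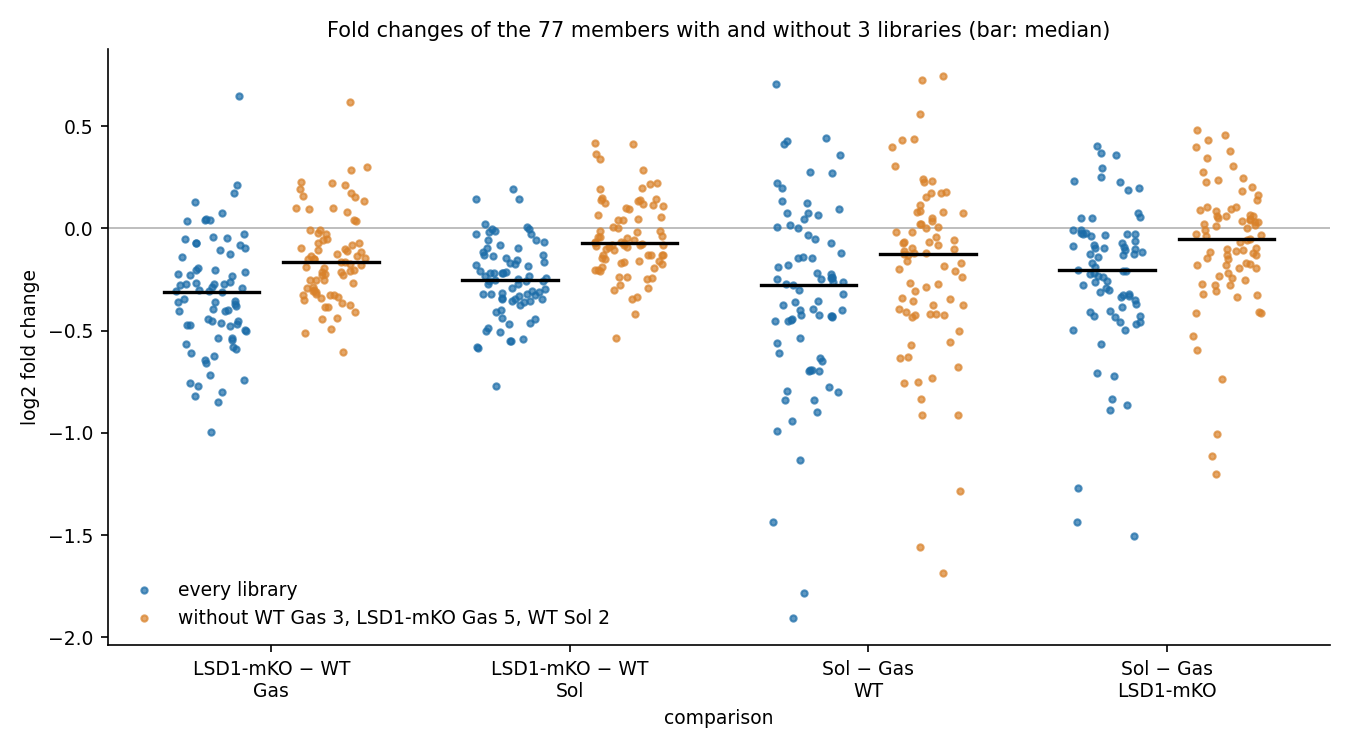
Log2 fold changes of the 77 members in the 4 comparisons, 1 point per member with the median as a bar, with every library (blue) and without replicate 3 of WT Gas, replicate 5 of LSD1-mKO Gas and replicate 2 of WT Sol (orange). The median moves toward 0 in every comparison when these libraries are left out, for the genotype comparisons from -0.31 to -0.16 (Gas) and from -0.25 to -0.07 (Sol).

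Mrpl23, Mrps21 and Mrpl52 were called lower in Sol in both genotypes. Mrpl23 encodes uL23m, a large-subunit protein with a bacterial counterpart. It was at 13.8, 11.8 and 23.5 CPM in WT Gas and at 4.49, 7.44 and 6.14 CPM in WT Sol, and no Sol library of either genotype reached a Gas library. The log2 fold change was -1.43 (SE 0.29, adjusted p = 0.00265, edgeR) in WT and -1.27 (SE 0.22, adjusted p = 0.000519) in LSD1-mKO. Mrps21, which encodes bS21m of the small subunit, was at 125.6, 98.3 and 318.4 CPM in WT Gas and at 39.8, 86.8 and 30.7 CPM in WT Sol. In LSD1-mKO it spanned 69.3 to 195.4 CPM in Gas, far above the 32.8 to 40.9 CPM of Sol, and the fold changes were -1.78 (SE 0.45, adjusted p = 0.0121, edgeR) in WT and -1.51 (SE 0.35, adjusted p = 0.00439) in LSD1-mKO. Mrpl52, which encodes mL52, was at 56.4, 43.9 and 180.0 CPM in WT Gas and at 15.5, 40.2 and 19.0 CPM in WT Sol. Its fold changes were -1.91 (SE 0.52, adjusted p = 0.0191, edgeR) in WT and -1.43 (SE 0.40, adjusted p = 0.0147) in LSD1-mKO. The LSD1-mKO libraries spanned 28.6 to 106.2 CPM in Gas, against 17.6 to 21.4 CPM in Sol, without overlap. All 3 genes were called in both genotypes without the 3 high libraries together, and in LSD1-mKO with the replicate as a block. In WT they were called with the block too, but replicate numbers did not pair the WT muscles (correlations -0.515 to 0.123). Mrpl23 was also called whichever single library was left out, with an adjusted p of at most 0.0445 over all settings (edgeR or DESeq2). In WT, Mrps21 and Mrpl52 were not called without replicate 3 of WT Gas (-1.12 and -1.04, adjusted p = 0.0784 and 0.143, edgeR) or without replicate 1 or 3 of WT Sol. With the cytosolic covariate they were not called in WT either (-0.41 and -0.19, adjusted p = 0.210 and 0.530, edgeR). In LSD1-mKO, Mrpl52 was not called without replicate 5 of Gas (-0.99, adjusted p = 0.0546, edgeR).

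In LSD1-mKO, 4 further members were called lower in Sol. Mrpl34, which encodes bL34m, was at -0.87 (SE 0.28, adjusted p = 0.0309, edgeR) and Mrpl57, which encodes mL63, at -0.71 (SE 0.25, adjusted p = 0.0453). Mrpl32, which encodes bL32m, was at -0.50 (SE 0.16, adjusted p = 0.0325, edgeR) and Mrps18b at -0.31 (SE 0.11, adjusted p = 0.04999). With the replicate as a block these 4 were not called (adjusted p between 0.0557 and 0.1001, edgeR).

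The members called higher in Sol were Mrpl3 and Mrpl39. Mrpl3 encodes uL3m, which lies near the peptidyl transferase center. It was at 40.7, 46.0 and 48.3 CPM in WT Gas and at 75.4, 72.9 and 71.7 CPM in WT Sol, without overlap. The log2 fold change was 0.70 (SE 0.16, adjusted p = 0.00578, edgeR) in WT and 0.25 (SE 0.12, adjusted p = 0.145, edgeR) in LSD1-mKO, where Gas spanned 41.4 to 53.9 CPM and Sol 47.8 to 68.2 CPM, with overlap. Mrpl39, which encodes mL39, was at 24.5, 24.3 and 20.9 CPM in WT Gas and at 33.2, 33.6 and 27.9 CPM in WT Sol, and the fitted difference was 0.44 log2 (SE 0.15, adjusted p = 0.0477, edgeR). The LSD1-mKO libraries of Gas spanned 21.4 to 27.4 CPM and those of Sol 28.9 to 33.8 CPM, a fold change of 0.40 (SE 0.11, adjusted p = 0.0155, edgeR). Mrpl3 was called in WT under every alternative setting, with an adjusted p of at most 0.0291. Mrpl39 lay close to the threshold. In WT it was not called without the 3 high libraries (0.30, adjusted p = 0.179, edgeR) or when any 1 of most libraries was left out. Nor was it called in WT with a replicate block, although replicate numbers did not pair the WT muscles. In LSD1-mKO it was not called without replicate 4 of Gas or of Sol (adjusted p = 0.0593 and 0.0588, edgeR). Members lower in Sol tended to have short transcripts: across the 77 members, Spearman's rho between transcript length and the fold change of Sol against Gas was 0.402 in WT and 0.330 in LSD1-mKO, beside 0.299 and 0.227 over all genes tested with a known length. With offsets for length and GC content, the members' medians were -0.03 and -0.06, and Mrpl23, Mrps21, Mrpl52 and Mrpl39 were still called in both genotypes.

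The promoters of the 5 members that were called between the muscles in WT are shown for their sequence, as RefSeq gives them for GRCm38.p6, the assembly of mm10, from 250 bases before to 50 bases after the start site, each 300 bases long and 5′ to 3′ on the gene's strand. Capitals mark matches on either strand to 4 motifs of factors known to regulate nuclear genes for mitochondria: NRF1 (GCGCNTGCG), the ETS motif of GABP (CCGGAAGT), YY1 (AAGATGGC) and the ERR motif (CAAGGTCA).
Mrpl23, chr7:142532782-142533081, plus strand: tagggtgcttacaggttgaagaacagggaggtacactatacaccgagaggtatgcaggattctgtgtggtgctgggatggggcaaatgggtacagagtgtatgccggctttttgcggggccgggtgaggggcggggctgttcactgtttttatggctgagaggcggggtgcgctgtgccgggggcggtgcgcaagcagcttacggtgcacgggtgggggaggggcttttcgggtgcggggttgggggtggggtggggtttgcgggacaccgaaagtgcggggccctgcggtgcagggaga
Mrps21, chr3:95871465-95871764, minus strand: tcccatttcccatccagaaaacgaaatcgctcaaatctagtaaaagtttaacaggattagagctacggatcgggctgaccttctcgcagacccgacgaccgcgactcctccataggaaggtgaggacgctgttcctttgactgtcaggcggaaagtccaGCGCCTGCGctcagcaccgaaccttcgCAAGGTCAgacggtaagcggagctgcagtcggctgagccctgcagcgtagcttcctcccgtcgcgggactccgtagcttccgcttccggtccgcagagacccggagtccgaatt
Mrpl52, chr14:54426659-54426958, plus strand: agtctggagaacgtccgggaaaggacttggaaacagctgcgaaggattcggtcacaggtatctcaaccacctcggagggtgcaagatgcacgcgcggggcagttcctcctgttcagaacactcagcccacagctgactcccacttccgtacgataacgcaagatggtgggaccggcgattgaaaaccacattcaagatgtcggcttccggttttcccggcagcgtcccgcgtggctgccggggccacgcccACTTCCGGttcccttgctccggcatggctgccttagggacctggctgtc
Mrpl3, chr9:105053018-105053317, plus strand: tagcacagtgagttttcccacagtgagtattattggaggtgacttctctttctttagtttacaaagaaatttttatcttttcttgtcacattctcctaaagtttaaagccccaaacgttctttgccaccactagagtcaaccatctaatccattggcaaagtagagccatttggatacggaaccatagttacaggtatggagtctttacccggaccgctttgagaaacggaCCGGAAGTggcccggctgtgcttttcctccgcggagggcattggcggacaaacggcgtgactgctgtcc
Mrpl39, chr16:84735195-84735494, minus strand: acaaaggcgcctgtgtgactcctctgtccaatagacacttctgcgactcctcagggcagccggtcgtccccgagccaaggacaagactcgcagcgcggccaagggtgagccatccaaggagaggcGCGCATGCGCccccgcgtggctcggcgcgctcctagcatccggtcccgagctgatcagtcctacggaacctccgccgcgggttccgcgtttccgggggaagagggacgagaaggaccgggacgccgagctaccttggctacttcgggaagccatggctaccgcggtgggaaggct
Mrps21 held an NRF1 match starting 91 bases and an ERR match starting 64 bases before the start site, Mrpl39 held overlapping NRF1 matches on both strands, Mrpl3 held an ETS match starting 19 bases before the start site, and Mrpl52 held one just after it. Mrpl23 held none of the 4 motifs. A match is a stretch of letters and does not show binding.

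Over the family, 68 of the 77 members had promoter entries, 74 in all. Mrpl4, Mrpl13, Mrpl15, Mrpl19, Mrpl38, Mrpl54, Mrps28, Mrps34 and Mrps35 had none. The NRF1 motif was found in 24.3% of the members' promoters and in 6.31% of all 32851 promoters of the table. The ETS motif was found in 16.2% against 3.89%, the YY1 motif in 16.2% against 2.75% and the ERR motif in 2.7% against 1.56%. The promoters of cytosolic ribosomal protein genes held the NRF1 motif in 10.4%, the ETS motif in 16.4% and the YY1 motif in 10.4%. The median genotype fold change of the 18 members with an NRF1 match was -0.26 in Gas and -0.24 in Sol, beside -0.36 and -0.24 for the 50 without. For the 12 members with an ETS match it was -0.46 and -0.32, beside -0.29 and -0.24 for the 56 without. For the 12 with a YY1 match it was -0.32 and -0.21, beside -0.31 and -0.26 for the 56 without. Only 2 members had an ERR match, at medians of -0.47 and -0.31. These medians rest on every library, and their differences were not tested. The promoters of Mrps2 and Mrpl41 held no match.

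Genes that make, assemble or serve the mitochondrial ribosome were examined beside the members. None of them was called in either genotype comparison (0 in each list, edgeR). They comprise 6 ribosome subunits with other names, 11 genes of mitochondrial DNA transcription, 19 of ribosome assembly, 15 translation factors, 17 mitochondrial aminoacyl-tRNA synthetases and 12 regulators of nuclear genes for mitochondria, of which 1 transcription gene was not tested in Gas. At an unadjusted p under 0.05, 1 transcription gene and 1 synthetase were higher in Gas, where 4.75% of all genes were higher and 4.31% lower. In Sol, 3 assembly factors, 2 regulators and 1 gene each of the other subunits, transcription and synthetases were lower, and 1 assembly factor and 1 synthetase were higher. Of all genes in Sol, 6.84% were lower and 8.66% higher at that threshold. Sol medians were -0.23 for the other subunits, -0.21 for transcription, -0.16 for assembly, -0.11 for translation factors, -0.04 for synthetases and -0.16 for regulators. In Gas the same medians were -0.30, 0.09, -0.09, 0.14, 0.09 and 0.14, so that of these lists the other subunits and the assembly factors had a median below 0 in both muscles. Without the high libraries those 2 were at -0.15 and -0.04 in Gas and at -0.10 and -0.03 in Sol. The genes named here were chosen after their values were seen. The lowest p in Sol belonged to Eral1, an assembly factor that binds the small-subunit RNA, at -0.50 (SE 0.13, adjusted p = 0.0977, edgeR). Esrra, which encodes the nuclear receptor ERRα, was at -0.50 (SE 0.14, adjusted p = 0.117, edgeR), and Tfam, which packages mitochondrial DNA, at -0.48 (SE 0.15, adjusted p = 0.153, edgeR). Without replicate 2 of WT Sol they were at -0.42, -0.41 and -0.43 (adjusted p between 0.204 and 0.262, edgeR).

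Some translation factors and regulators were called higher in Sol, where 8.75% of all genes were called higher and 8.25% lower in WT, and 12.9% and 11.6% in LSD1-mKO. In WT, 5 of 15 translation factors were called higher in Sol and 0 lower, and 4 of 12 regulators were called higher and 0 lower. In LSD1-mKO, 3 translation factors were called higher and 2 lower, and 3 regulators higher. Of the other subunits 1 of 6 was called higher, Ptcd3, at 1.04 (SE 0.22, adjusted p = 0.00378, edgeR) in WT, and of the synthetases 3 of 17 were. Lrpprc, which stabilizes mitochondrial messages, was at 0.94 (SE 0.15, adjusted p = 0.000507, edgeR) in WT and 0.42 (SE 0.12, adjusted p = 0.0147) in LSD1-mKO. Esrrg, which encodes the nuclear receptor ERRγ, was at 3.19 (SE 0.51, adjusted p = 0.00045, edgeR) in WT and 2.41 (SE 0.38, adjusted p = 0.000223) in LSD1-mKO. Of 19 assembly factors, 1 was called higher and 2 lower in WT, and 1 higher and 5 lower in LSD1-mKO. Malsu1, which joins the large subunit late in assembly, was at -1.69 (SE 0.50, adjusted p = 0.0271, edgeR) in WT and -1.20 (SE 0.38, adjusted p = 0.0290) in LSD1-mKO, on the same side as Mrpl23, Mrps21 and Mrpl52. With the cytosolic covariate Malsu1 was at 0.02 (SE 0.17, adjusted p = 0.960, edgeR) in WT and -0.27 (SE 0.12, adjusted p = 0.107) in LSD1-mKO. With the replicate block, whose numbers did not pair the WT muscles, it was not called in WT (adjusted p = 0.0601, edgeR). These settings were applied to the lists after seeing the data. Without the 3 high libraries, 6 translation factors were called higher and 1 lower in WT, and 3 higher and 2 lower in LSD1-mKO. Of the assembly factors, 2 were then called higher and 5 lower in WT, and 3 higher and 5 lower in LSD1-mKO. Of the regulators, 4 and 3 were called higher, against 10.9% (WT) and 15.8% (LSD1-mKO) of all genes. Lrpprc and Esrrg were called in both genotypes without these libraries, with the block and with the covariate, and Ptcd3 was not called with the covariate (0.59, adjusted p = 0.0590 in WT, edgeR).

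Counting limits what can be said of some members. Reads were counted without regard to strand, and reads over exons of several genes were left out. The gene models used for counting may differ from GENCODE M21. By GENCODE M21, exons of many members overlap those of another gene, most of them on the opposite strand. Part of the reads of such members may therefore not have been counted or may come from the other gene. Among such members are Mrpl46 and Mrps11, which overlap each other at their first exons on opposite strands of chromosome 7, at positions 78775236 to 78783531 and 78783119 to 78792989. Their log2 fold changes were -0.40 and -0.35 in Gas and -0.31 and -0.25 in Sol. Mrpl23 (chromosome 7, 142532686 to 142540747, plus strand), Mrps2 (chromosome 2, 28468066 to 28471178, plus strand) and Mrpl41 (chromosome 2, 24974117 to 24975098, minus strand) had no such overlap in GENCODE M21.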

How the data were processed

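Poly(A) RNA of Gas and Sol was sequenced as 75-bp single-end reads. Per the labels and the study's methods, the authors aligned reads with STAR to mm10 and counted reads per gene with featureCounts 1.5.2, without a strand option and leaving out reads that map or overlap more than once. The deposited values are raw counts, 1 table per muscle, and 0 columns belonged to other samples. The authors' fold-change tables were not used.

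Groups followed the labels. Genes were kept by edgeR's filterByExpr (minimum count 10), scaled by TMM and tested with edgeR 4.0.16 quasi-likelihood (R 4.3.3, limma 3.58.1), with Benjamini-Hochberg adjustment over all genes tested. "Called" means an adjusted p under 0.05. Each genotype comparison used the 8 libraries of its muscle, and the muscle comparisons used all 16. Levels are CPM, with a prior count of 2 for log2 CPM, which makes differences in log2 CPM smaller for low genes. Fold changes come from the fits and not from these log2 CPM. RPKM divides CPM by the length of a RefSeq-paired GENCODE M21 transcript. DESeq2 1.42.0, other scalings, filters, offsets, covariates and left-out libraries were alternatives. The pipeline was tested on simulated data.

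Totals of 10130415 to 24576377 reads per library put the limit that a count of 0 allows, 3 reads, at 0.122 to 0.296 CPM, counting error only. The members and lists were chosen with earlier results of these data known. Genes named in the text are members called between genotypes, the 5 highest and 5 lowest fold changes of each genotype comparison, the 5 highest and lowest called between muscles, the 3 highest and lowest in RPKM, and 10 members of known place in the ribosome or misleading name. Others were chosen after their values were seen. Same-numbered LSD1-mKO libraries of Gas and Sol deviated together from their group means over genes (correlation 0.212 to 0.359 for 5 pairs), so the replicate number was taken to pair them. The pairing comes from the data and from shared numbers, and no label names the mice.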

Additional observations from a re-analysis of the deposited data

Results flagged for a closer look

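In groups of 5, the gap of the highest or lowest library to its nearest neighbour, divided by the range of the group, was above Dixon's critical value in 9 of 76 results examined, where chance alone gives about 3.8, or 1 in 20. The 76 results do not cover all 77 members in both groups of 5, so the 9 are not a full list for the family. In 8 of the 9 flagged results replicate 5 of LSD1-mKO Gas stood high. Members rose together in that library, so the results are not independent and 9 cannot be weighed against 3.8. The ratio was 0.811 for Mrpl23 (17.0 CPM against 10.1 to 11.4 CPM in the other four), 0.805 for Mrpl33 (172.6 against 60.3 to 82.2 CPM), 0.804 for Mrpl11 (87.4 against 40.6 to 49.8 CPM) and 0.796 for Mrpl53 (119.8 against 48.8 to 63.3 CPM). It was 0.780 for Mrpl57 (80.0 against 32.5 to 43.0 CPM), 0.770 for Mrps30 (107.6 against 64.8 to 74.6 CPM), 0.724 for Mrpl52 (106.2 against 28.6 to 49.96 CPM) and 0.715 for Mrps6 (18.2 against 11.3 to 13.3 CPM). For Mrps12, replicate 4 of LSD1-mKO Sol stood low, at 21.3 CPM against 26.4 to 28.4 CPM, with a ratio of 0.714.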

How the results depend on the processing

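In Gas, DESeq2 called 1 member in place of 0, and over all genes 132 in place of 4. In Sol, 1 member was called with no filter on low counts, with offsets for transcript length and GC content, with the replicate block and by the exact test, and 2 were called by DESeq2 and with the cytosolic covariate. Over all genes these settings called 240 to 605 in Sol, in place of 129. In Sol against Gas in WT, 5 members were called, against 8 by DESeq2, 8 with the offsets, 8 with library totals alone (chosen after seeing the data), 19 with the covariate and 16 without the 3 high libraries. Over all genes the main fit called 2337, and these settings called 2996, 2644, 2690, 1870 and 3010 in that order. In LSD1-mKO, 8 became 20 with the covariate, 4 with the replicate block and 16 without the 3 high libraries, where over all genes 3367 became 3717, 3063 and 4342. With the covariate the medians were -0.03 in Gas (43 of 77 below 0), -0.23 in Sol (33 lower at an unadjusted p under 0.05 in place of 19), -0.21 for the difference of genotype effects, 0.36 for the muscles in WT (18 called higher and 1 lower in place of 2 and 3) and 0.14 in LSD1-mKO (17 and 3 in place of 1 and 7). Library totals alone gave 5 higher and 3 lower in WT. With the offsets the medians were -0.15 in Gas (54 of 77 below 0) and -0.18 in Sol (64 of 77). Leaving out 1 library at a time gave 2 to 13 members called between muscles in WT and 4 to 16 in LSD1-mKO. Over all genes tested, the same fits called 1132 to 2839 (WT) and 2618 to 4409 (LSD1-mKO). The spread was therefore not confined to the members. Between genotypes, such fits called 0 members, beside 1 to 7 genes of all tested for Gas and 11 to 228 for Sol. Medians of the members were -0.47 to -0.02 in Gas, -0.33 to -0.07 in Sol and -0.23 to 0.27 for the difference of genotype effects. The causes were not tested. Library totals alone moved the median of all genes to 0.17 in Gas, 0.22 in the WT muscles and 0.11 in the LSD1-mKO muscles, and relative to it the members were at -0.32, -0.25 and -0.19. Many fold changes changed sign between settings. In Gas, members below 0 went from 68 to 45 without replicate 3 of WT Gas. In Sol they went from 72 to 50 without replicate 2 of WT Sol. For Sol against Gas in WT they went from 58 to 6 with the covariate. The 5 members that follow, not called between genotypes, are examples. Mrpl33 in Gas was at 0.27 with the covariate, at 0.082 without the high libraries, and between -1.39 and 0.43 when 1 library was left out. Mrps30 in Gas was at -0.034 with the replicate block and between -0.083 and 0.37 when 1 library was left out. Left-out libraries gave -1.29 to 0.044 for Mrpl52 in Gas, -0.13 to 0.41 for Mrps34 in Sol and -0.064 to 0.097 for Mrpl10 in Sol. Replicate numbers did not pair WT with LSD1-mKO libraries (correlations -0.16 to 0.307 in Gas and -0.00616 to 0.128 in Sol) or WT Gas with WT Sol (-0.515 to 0.123). With the block, medians were -0.41 in Gas and -0.28 in Sol.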
